A study of Mus musculus with 12 samples.

Results

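A list of 39 genes that mark or specify the germ layers was followed in mouse embryonic stem (ES) cells after RNA interference (RNAi) against *Kdm6a*, which encodes an X-linked demethylase of histone H3 lysine 27. The genes were taken by symbol from the platform annotation: 13 of neuroectoderm, 17 of mesoderm and 8 of endoderm, and *Ebf1*, which was given no layer. All encode transcription factors except *Cer1*, whose product is a secreted antagonist of NODAL, BMP and WNT. Of the 19938 named genes on the array, 38 were on the list. *T* (Brachyury), the pan-mesoderm T-box gene, had no probe set under its symbol in the annotation and was not analysed here.

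Cells of the female line PGK12.1 (from a 129 female and a (129 × PGK)F1 male) and of the male line WD44 (BL6) received pooled siRNAs that target *Kdm6a* or, as control, were transfected with siRNAs that have no target. PGK12.1 was treated in 4 experiments and WD44 in 2. An experiment gave 1 *Kdm6a* RNAi array and 1 control RNAi array, which makes 12 arrays. Cells were kept with LIF on mouse embryonic fibroblast feeders, which were depleted on gelatin before RNAi, and used at passages 14 to 18. Double RNAi, 100 pmol for 48 h followed by 400 pmol for 24 h, was used in PGK12.1 experiments 1 and 2. Single RNAi, 100 pmol for 48 h, was used in PGK12.1 experiments 3 and 4 and throughout in WD44. Sex and strain both separate the lines and cannot be told apart. The rounds of RNAi differ too, since double RNAi was given to PGK12.1 alone. Differences between the lines pool all 4 PGK12.1 experiments unless stated. Each line stands for its sex alone, and whether the WD44 experiments used separate cultures is not stated, so their spread may be technical.

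RNA was hybridised to Affymetrix Mouse Gene 1.0 ST arrays, and signal was deposited as log2 values. The array medians lay at 6.15 to 6.21 in PGK12.1 experiments 1 and 2, at 6.47 and 6.48 in experiment 3, at 8.2 and 8.21 in experiment 4 and at 8.03 to 8.08 in WD44, so the arrays came in sets of different scale. Log2 changes are *Kdm6a* RNAi minus control RNAi of the same experiment, which share a set. A level is the linear value over the mean of all probe sets of its array, and 0.1 of that mean was the minimum for a test. *Kdm6a* itself had log2 changes of -1.27, -1.50, -1.42 and -0.96 in PGK12.1 experiments 1 to 4, and of -0.94 and -0.92 in WD44. Its mean change was -1.29 in PGK12.1 (adjusted p = 0.000293, limma) and -0.93 in WD44 (adjusted p = 0.13), where no gene passed the test. The 10 ES cell markers had a summed level of 47.5 to 58.1 after *Kdm6a* RNAi and 47.8 to 57.4 after control RNAi in PGK12.1. In WD44 that sum was 27.1 to 28.8 after *Kdm6a* RNAi and 27.3 to 29.5 after control RNAi, and no ES cell marker passed the test in either line. By gene, 8 of the 10 had a mean change below 0 in WD44 (median -0.075) and 7 in PGK12.1 (median -0.0175). *Zfp42* had the lowest in WD44, with changes of -0.28 and -0.18.

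Germ layer genes are the classic example of genes that ES cells hold at low output until differentiation. Many of their promoters carry methylation of histone H3 at both lysine 4 and lysine 27, the bivalent state, and KDM6A removes the lysine 27 mark. Neuroectoderm gives rise to brain and spinal cord, mesoderm to heart, blood, muscle and mesenchyme, and endoderm to gut, liver and pancreas.

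Germ layer genes lay low on these arrays, with a median of their mean levels of 0.226 of the array mean, against 0.282 for all named genes. Even so, 34 of the 38 genes (89.5%) had a mean level of at least 0.1 over the 12 arrays, against 76.8% of all named genes. The background of a probe set was not estimated, so low levels, whether close to this minimum or above it, cannot be told from background. There were 21 genes at or above 0.1 on all 12 arrays, 17 on some arrays and 0 on none. The number of genes at or above 0.1 was 24 on both arrays of PGK12.1 experiment 3 and 33 to 36 on all others. Experiment 3 also had fewer of all named genes there (67.9% and 68.1%, against 74.5% to 80.8% on the other arrays). The median of the mean levels was 0.319 in neuroectoderm, 0.238 in mesoderm and 0.163 in endoderm.

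The 4 genes below the minimum were not tested. They were *Tbx5* (0.0883), a T-box gene of the developing heart, *Prox1* (0.0888), a homeobox gene of liver and lymphatic endothelium, *Mef2c* (0.0897), a MADS-box gene of heart and muscle, and *Cer1* (0.0962). Just above the minimum lay *Zic1* (0.104), a zinc finger gene of the neural plate, and *Sox17* (0.119), a SOX gene of early endoderm. Only *Foxf1*, a forkhead gene of lateral mesoderm, had 2 probe sets, which were averaged.

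**Figure D1:**
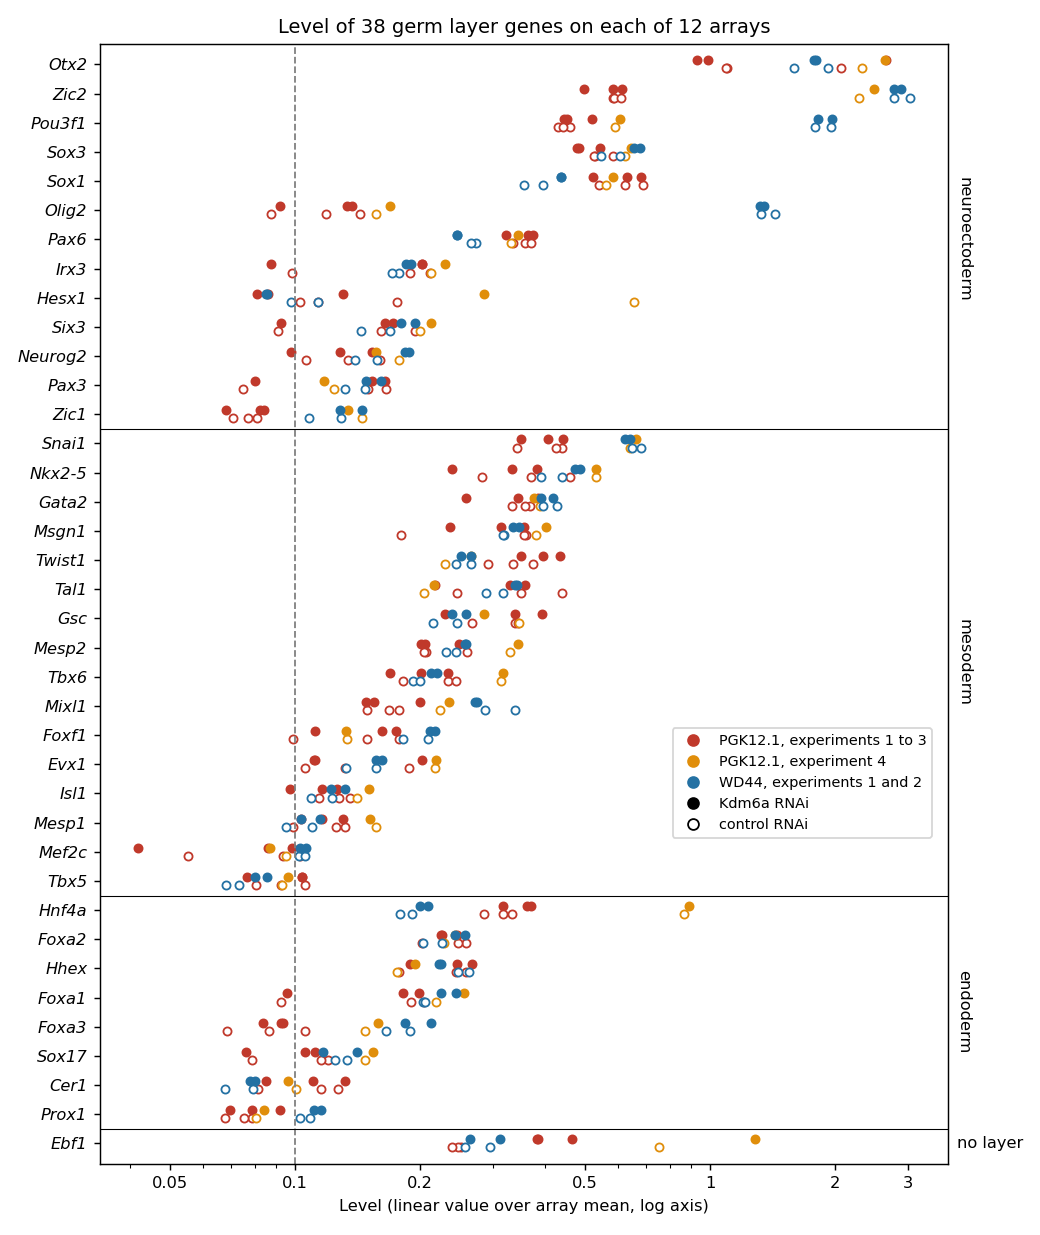
Level of each of the 38 measured germ layer genes on each of the 12 arrays (linear value over array mean, log axis), by layer. Filled points are *Kdm6a* RNAi arrays, open points control RNAi arrays, colours mark line and experiment, and the dashed line marks 0.1; *Olig2*, *Pou3f1* and *Zic2* show the widest gaps between sets of arrays.

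There were 7 genes with a mean level of at least 0.5, of which 6 were of neuroectoderm, 1 (*Snai1*) of mesoderm and 0 of endoderm. *Otx2*, a homeobox gene of epiblast and forebrain, had a mean level of 1.74. Its levels in PGK12.1 experiments 1 to 4 were 0.99, 0.928, 2.65 and 2.64 after *Kdm6a* RNAi and 1.10, 1.09, 2.06 and 2.33 after control RNAi, and in WD44 1.78 and 1.80 after *Kdm6a* RNAi and 1.59 and 1.92 after control RNAi. Arrays of experiments 3 and 4 of PGK12.1 were the highest and those of its experiments 1 and 2 the lowest, while *Kdm6a* RNAi and control RNAi overlapped in both lines. The log2 change of *Otx2* was -0.13, -0.25, 0.36 and 0.18 in PGK12.1, negative in both double RNAi experiments and positive in both single RNAi experiments, and 0.14 and -0.11 in WD44.

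*Zic2*, a zinc finger gene of epiblast and neural plate, had levels of 0.585, 0.497, 0.614 and 2.48 after *Kdm6a* RNAi in PGK12.1 experiments 1 to 4, and 0.584, 0.586, 0.608 and 2.28 after control RNAi. In WD44 it had 2.88 and 2.76 after *Kdm6a* RNAi and 2.77 and 3.02 after control RNAi. PGK12.1 experiment 4 thus lay nearer to WD44, to which its array medians are also nearer, than to the other PGK12.1 experiments. The log2 change of *Zic2* was 0.02, -0.25, 0.01 and 0.12 in PGK12.1 and 0.04 and -0.14 in WD44. *Pou3f1*, a POU gene of primed epiblast and neural progenitors, did not show that jump. Its levels were 0.453, 0.445, 0.52 and 0.607 after *Kdm6a* RNAi and 0.458, 0.429, 0.442 and 0.59 after control RNAi in PGK12.1, and 1.97 and 1.82 after *Kdm6a* RNAi and 1.79 and 1.95 after control RNAi in WD44. Its log2 change was 0.00, 0.04, 0.23 and 0.04 in PGK12.1 and 0.12 and -0.11 in WD44.

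*Olig2*, a basic helix-loop-helix gene of motor neuron and oligodendrocyte progenitors, differed most in rank between the lines. In PGK12.1 its levels were 0.137, 0.133, 0.0919 and 0.17 after *Kdm6a* RNAi and 0.143, 0.119, 0.0874 and 0.157 after control RNAi. In WD44 they were 1.35 and 1.32 after *Kdm6a* RNAi and 1.33 and 1.43 after control RNAi. Every WD44 array lay above every PGK12.1 array, those of experiment 4 included, and *Kdm6a* RNAi and control RNAi overlapped in both lines. The log2 change of *Olig2* was -0.04, 0.15, 0.07 and 0.11 in PGK12.1 and 0.00 and -0.13 in WD44.

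*Sox3* and *Sox1*, SOXB1 genes of epiblast and neural plate, had mean levels of 0.575 and 0.538. *Sox3* ranged from 0.478 to 0.646 after *Kdm6a* RNAi and from 0.526 to 0.623 after control RNAi in PGK12.1, and measured 0.654 and 0.677 after *Kdm6a* RNAi and 0.547 and 0.605 after control RNAi in WD44. *Sox1* ranged from 0.524 to 0.681 after *Kdm6a* RNAi and from 0.541 to 0.69 after control RNAi in PGK12.1, and measured 0.438 and 0.437 after *Kdm6a* RNAi and 0.356 and 0.396 after control RNAi in WD44. Both genes were higher on the *Kdm6a* RNAi array in both WD44 experiments, and overlapped in PGK12.1. *Snai1*, a zinc finger repressor of E-cadherin that acts when mesoderm leaves the primitive streak, was the mesoderm gene with the highest mean level, 0.526. It ranged from 0.35 to 0.664 after *Kdm6a* RNAi and from 0.342 to 0.641 after control RNAi in PGK12.1, and measured 0.641 and 0.623 after *Kdm6a* RNAi and 0.682 and 0.648 after control RNAi in WD44. Its log2 change was -0.09, 0.04, 0.03 and 0.05 in PGK12.1 and -0.11 and -0.07 in WD44.

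The highest mean level in endoderm was that of *Hnf4a*, a nuclear receptor gene of liver and visceral endoderm (0.376). Its levels in PGK12.1 experiments 1 to 4 were 0.318, 0.361, 0.37 and 0.889 after *Kdm6a* RNAi and 0.333, 0.316, 0.286 and 0.863 after control RNAi. In WD44 they were 0.2 and 0.21 after *Kdm6a* RNAi and 0.179 and 0.191 after control RNAi. PGK12.1 experiment 4 again stood apart, here away from WD44 although their array medians were near each other.

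Ranks within an array depend less on its scale, so the control arrays of the lines were set side by side by percentile rank among named genes, as a description with no test between the lines. Of the 34 genes, 8 ranked higher on every PGK12.1 control than on either WD44 control, 8 ranked lower on every PGK12.1 control, and 18 overlapped. Over all tested genes the shares were 26.5% and 24.6%, so that the 8 genes each way (23.5%) are close to the background. The widest gap was that of *Olig2*, at percentile 28.5 to 32.9 on PGK12.1 controls and 80.2 to 81.7 on WD44 controls. *Pou3f1* (62.7 to 65 on PGK12.1 controls, 85.5 to 86.9 on WD44 controls) and *Zic2* (69.1 to 89.3 and 91.8 to 92.7) also ranked lower in PGK12.1, as did *Foxa3*, *Mixl1*, *Foxf1*, *Snai1* and *Sox17*. *Hnf4a* (56 to 71.4 on PGK12.1 controls, 39.2 to 39.9 on WD44 controls) and *Sox1* (62.6 to 72.4 and 53.5 to 55.5) ranked higher in PGK12.1, as did *Gsc*, *Pax6*, *Tbx6*, *Mesp1*, *Mesp2* and *Sox3*. The layers were split evenly, with 3 neuroectoderm genes above and 3 below, 4 mesoderm genes above and 3 below, and 1 endoderm gene above and 2 below.

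**Figure D2:**
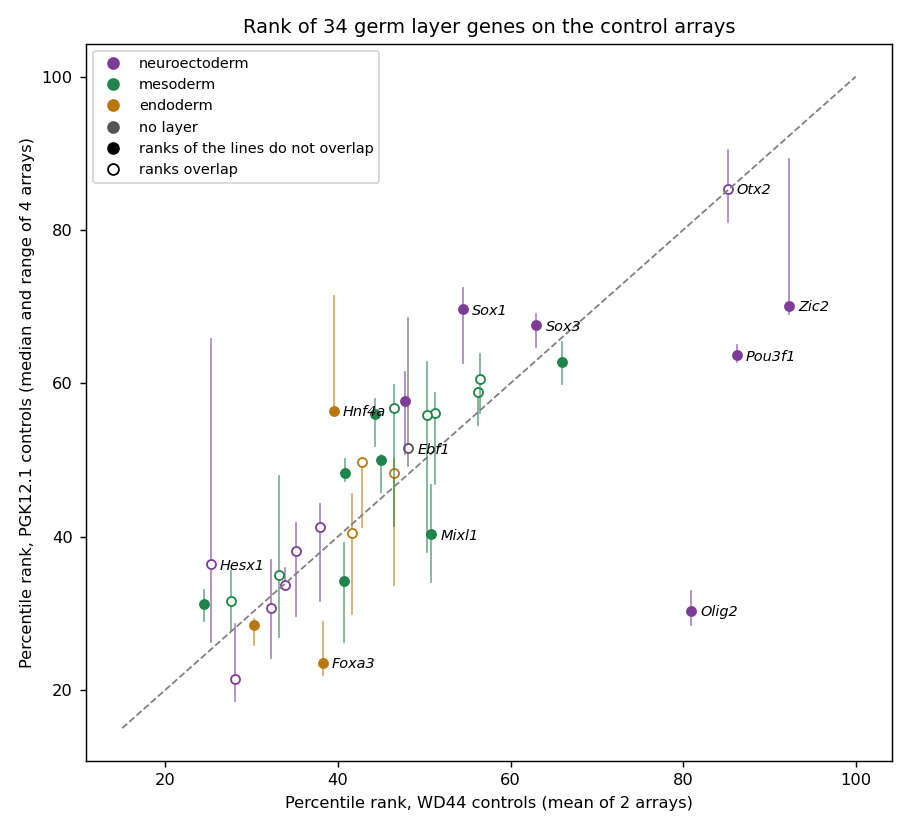
Percentile rank of the 34 tested germ layer genes among named genes, with the median and range of the 4 PGK12.1 control arrays on the vertical axis and the mean of the 2 WD44 control arrays on the horizontal axis. Filled points are the 16 genes whose ranks do not overlap between the lines, and *Olig2* lies farthest from the dashed line of equal rank. PGK12.1 experiment 4 lengthens the ranges of *Hesx1*, *Hnf4a*, *Zic2* and *Ebf1* upward, and those of genes such as *Tal1*, *Twist1* and *Hhex* (not labelled) downward.

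*Kdm6a* RNAi in PGK12.1 changed 2 of the 34 germ layer genes. *Ebf1* was higher and *Hesx1* was lower at an adjusted p under 0.05 (limma over 15309 genes), which is 2.94% of the genes in each direction. Over all tested genes 3.71% were called higher and 2.1% lower, so the counts of germ layer genes are close to the background. *Ebf1* was given no layer, *Hesx1* is of neuroectoderm, and no mesoderm or endoderm gene was called. The list was chosen with earlier results of these data known, so its counts are not an independent test. In bulk RNA, fewer cells of a type and less RNA per cell cannot be told apart.

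*Ebf1*, a helix-loop-helix factor gene best known for B cell and adipocyte commitment and also active in mesenchyme and neurons, had levels of 0.383, 0.385, 0.465 and 1.28 after *Kdm6a* RNAi and 0.251, 0.246, 0.239 and 0.752 after control RNAi in PGK12.1 experiments 1 to 4. Its level was higher on the *Kdm6a* RNAi array of each experiment, and the groups overlapped only through the control of experiment 4. The log2 change was 0.63, 0.63, 0.96 and 0.77, a mean of 0.75 (SE 0.0764, 95% interval 0.58 to 0.92, n = 4 experiments, adjusted p = 0.00114, limma) or 1.68-fold. In WD44 *Ebf1* had levels of 0.312 and 0.264 after *Kdm6a* RNAi and 0.257 and 0.294 after control RNAi, with log2 changes of 0.26 and -0.17 that point in opposite directions. PGK12.1 minus WD44, the change differed by 0.70 (SE 0.132) and did not pass the test (adjusted p = 0.0853, limma). Without WD44 experiment 1 this difference was 0.92 (adjusted p = 0.375) and without WD44 experiment 2 it was 0.49 (adjusted p = 0.313). The call in PGK12.1 was kept without each experiment in turn (0.68 to 0.79) and was lost in the double RNAi experiments alone (0.63, adjusted p = 0.324, n = 2 experiments). It was also lost by the methods' paired test (adjusted p = 0.159) and without the replicate block. In each of these settings 0 of all tested genes were called.

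*Ebf1* and *Twist1* are also active in fibroblasts, the cell type of the feeders. The summed level of the 9 measured fibroblast markers was 1.67 to 2.55 after *Kdm6a* RNAi and 1.70 to 2.41 after control RNAi in PGK12.1, and 4.66 to 5.17 after *Kdm6a* RNAi and 4.40 to 4.49 after control RNAi in WD44. The log2 ratio of the sums was -0.18, -0.03, 0.02 and 0.08 in PGK12.1 experiments 1 to 4, where *Ebf1* had changes of 0.63, 0.63, 0.96 and 0.77. Of the 7 fibroblast markers tested, 0 were called, and *Postn* and *Lum* lay below 0.1. *Acta2*, the marker with the highest mean level, had changes of -0.29, 0.00, 0.10 and 0.64. The part of fibroblast RNA in the *Ebf1* and *Twist1* values was not tested.

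*Hesx1*, a homeobox gene of anterior epiblast and forebrain that acts as a repressor, had the lower level on the *Kdm6a* RNAi array in 6 of 6 experiments. Its levels in PGK12.1 experiments 1 to 4 were 0.0863, 0.0809, 0.131 and 0.285 after *Kdm6a* RNAi and 0.114, 0.103, 0.176 and 0.654 after control RNAi. In WD44 they were 0.0859 and 0.0852 after *Kdm6a* RNAi and 0.098 and 0.114 after control RNAi. All arrays but those of PGK12.1 experiments 3 and 4 thus lay near 0.1, and the groups overlapped in PGK12.1 but not in WD44. The log2 change in PGK12.1 was -0.38, -0.36, -0.43 and -1.20, a mean of -0.59 (SE 0.122, n = 4 experiments, adjusted p = 0.0237, limma). Without experiment 4, in which its level was highest, the mean was -0.39 and the call was kept (adjusted p = 0.0156). The log2 change in WD44 was -0.21 and -0.43, a mean of -0.32 (adjusted p = 0.396), and the difference between the lines was -0.27 (adjusted p = 0.481). The call was lost when genes below the minimum level were tested as well (adjusted p = 0.0578) and in the single RNAi experiments alone (-0.81, adjusted p = 0.0833). It was also lost in the double RNAi experiments alone, without the replicate block and by the methods' paired test (adjusted p = 0.334).

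The promoters of these 2 genes and of *Olig2* are shown because they are the genes that changed and the gene with the widest gap between the lines. Each is the RefSeq window on GRCm38.p6 from 250 bases before to 50 bases after the start of transcription, 5′ to 3′ on the strand of the gene, with CpG dinucleotides in capitals. *Hesx1* lies on the plus strand at chr14:27000112-27000411, *Ebf1* on the plus strand at chr11:44617850-44618149 (the first listed of 2 windows) and *Olig2* on the plus strand at chr16:91225300-91225599.
Hesx1: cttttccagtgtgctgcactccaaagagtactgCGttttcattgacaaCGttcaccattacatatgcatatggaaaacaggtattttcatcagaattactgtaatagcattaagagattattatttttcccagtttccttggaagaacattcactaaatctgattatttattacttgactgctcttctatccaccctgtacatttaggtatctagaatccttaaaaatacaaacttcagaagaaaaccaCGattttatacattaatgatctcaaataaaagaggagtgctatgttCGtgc
Ebf1: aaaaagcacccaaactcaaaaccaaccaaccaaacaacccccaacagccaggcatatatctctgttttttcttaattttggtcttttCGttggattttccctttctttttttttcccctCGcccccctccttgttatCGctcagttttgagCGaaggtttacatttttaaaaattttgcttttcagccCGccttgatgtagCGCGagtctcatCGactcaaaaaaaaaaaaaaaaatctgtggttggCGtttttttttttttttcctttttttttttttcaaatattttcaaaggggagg
Olig2: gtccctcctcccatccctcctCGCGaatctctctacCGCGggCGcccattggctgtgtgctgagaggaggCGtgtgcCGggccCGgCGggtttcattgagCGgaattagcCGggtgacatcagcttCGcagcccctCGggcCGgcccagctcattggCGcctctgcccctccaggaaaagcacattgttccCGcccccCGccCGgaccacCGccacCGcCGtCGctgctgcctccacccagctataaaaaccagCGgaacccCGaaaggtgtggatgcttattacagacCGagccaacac
The *Hesx1* window holds 4 CpGs at 33.7% GC, the *Ebf1* window 9 CpGs at 36.7% GC and the *Olig2* window 25 CpGs at 65% GC. A window was found for 30 of the 38 measured genes (the first listed where there were several, 9 genes). Their median was 57.7% GC, as for the 15614 measured genes with a window, and the ratio of observed to expected CpGs had a median of 0.704 in germ layer genes and 0.625 in all genes. CpG-rich windows, with at least 55% GC and a ratio of at least 0.65, were 43.3% in germ layer genes and 41.8% in all genes. The letters TATAAA, searched on both strands, occurred in 9 of the 30 windows (30%) and in 12.08% of all windows. The *Olig2* window holds them on its own strand from base -8, the *Hesx1* window on the opposite strand, and the *Ebf1* window does not hold them. These are matches of letters in a window and not sites shown to be used.

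**Figure D3:**
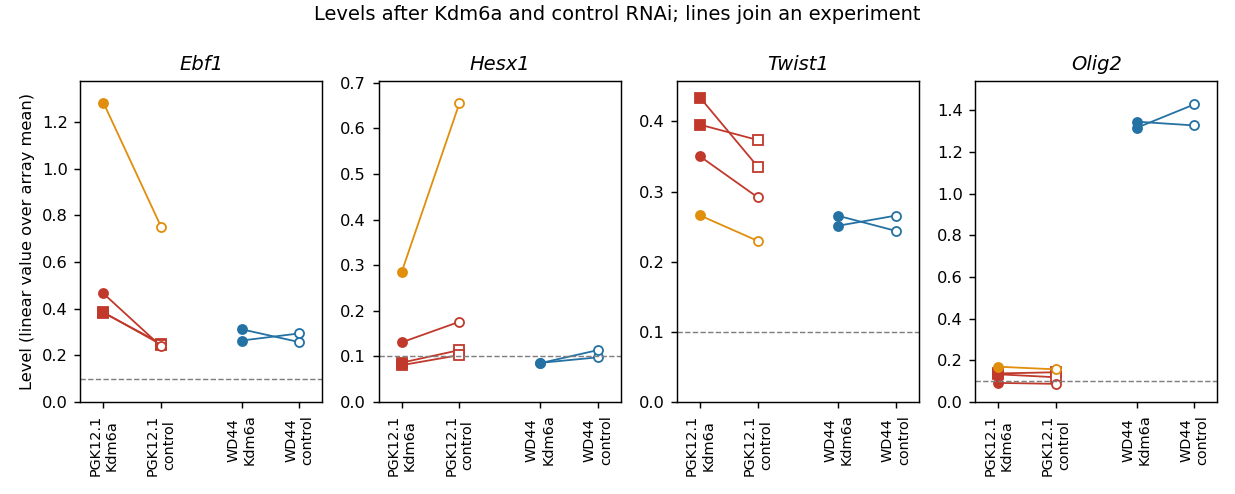
Level of *Ebf1*, *Hesx1*, *Twist1* and *Olig2* (linear value over array mean, axes from 0) after *Kdm6a* RNAi (filled) and control RNAi (open), with a line for each experiment; red is PGK12.1 experiments 1 to 3, orange PGK12.1 experiment 4, blue WD44, squares are double RNAi and circles single RNAi, and the dashed line marks 0.1. In PGK12.1 all 4 lines fall toward the control for *Ebf1* and *Twist1* and rise toward it for *Hesx1*, and *Olig2* is high in WD44 alone.

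The other 32 tested genes did not pass the test in PGK12.1. The nearest was *Twist1*, a basic helix-loop-helix gene of mesenchyme and cranial mesoderm. Its levels in PGK12.1 experiments 1 to 4 were 0.434, 0.395, 0.35 and 0.266 after *Kdm6a* RNAi and 0.336, 0.374, 0.292 and 0.23 after control RNAi, and in WD44 0.251 and 0.265 after *Kdm6a* RNAi and 0.266 and 0.244 after control RNAi. Its *Kdm6a* RNAi array was the higher in each PGK12.1 experiment, while the groups overlapped. The log2 change was 0.39, 0.07, 0.26 and 0.21, a mean of 0.23 (adjusted p = 0.0506, limma). With a minimum level of 0.25 it passed (adjusted p = 0.0219), and over all alternatives its adjusted p ranged from 0.0219 to 1. In WD44 its changes were -0.10 and 0.11.

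The remaining 31 genes had mean changes from -0.16 to 0.14 (log2) in PGK12.1. *Nkx2-5*, a homeobox gene of cardiac progenitors, had the lowest of these. Its levels were 0.383, 0.332, 0.239 and 0.532 after *Kdm6a* RNAi and 0.458, 0.371, 0.282 and 0.531 after control RNAi in PGK12.1 experiments 1 to 4, and its log2 change was -0.24, -0.17, -0.24 and 0.00 (adjusted p = 0.101, limma). *Nkx2-5* was level in experiment 4 and lower in the other 3. The 95% intervals of the germ layer genes had a median half-width of 0.13 (log2) in PGK12.1 and 0.18 in WD44. These intervals are unadjusted. Of the changes larger than that, only those of *Ebf1* and *Hesx1* passed the adjusted test in PGK12.1, and none passed in WD44.

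By layer, the median log2 change in PGK12.1 was -0.005 for the 13 neuroectoderm genes, -0.02 for the 14 mesoderm genes and 0.0575 for the 6 endoderm genes, against 0.0075 for all tested genes. Over all 34 genes it was -0.0025. With a minimum level of 0.25 or quantile normalization the medians of neuroectoderm (0.0125 and 0.0031) and of all germ layer genes (0.01 and 0.0024) turned positive. Called genes numbered 0 higher and 1 lower in neuroectoderm, and 0 in each direction in mesoderm and endoderm. At an unadjusted p under 0.05 (limma) there were 4 of the 34 germ layer genes, against 3467 of the 15309 tested genes. Only *Ebf1* and *Twist1* (5.88%) were higher in all 4 experiments, and only *Hesx1* and *Neurog2* (5.88%) were lower, against 16.3% and 10.6% of all tested genes. Experiments differed in the share of positive changes. There were 7 of 34 with a positive change in experiment 1, 18 in experiment 2, 19 in experiment 3 and 25 in experiment 4. Of all tested genes, 50.5%, 56.3%, 53.4% and 46.4% had one. The 7773 tested genes averaging below 0.5 in level had median changes of -0.05, 0.01, 0.01 and -0.01 in experiments 1 to 4. These medians were -0.08, 0.02, 0.025 and 0.055 for the germ layer genes and 0.01, 0.03, 0.02 and 0 for all tested genes. The part of low level in these shares was not tested.

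**Figure D4:**
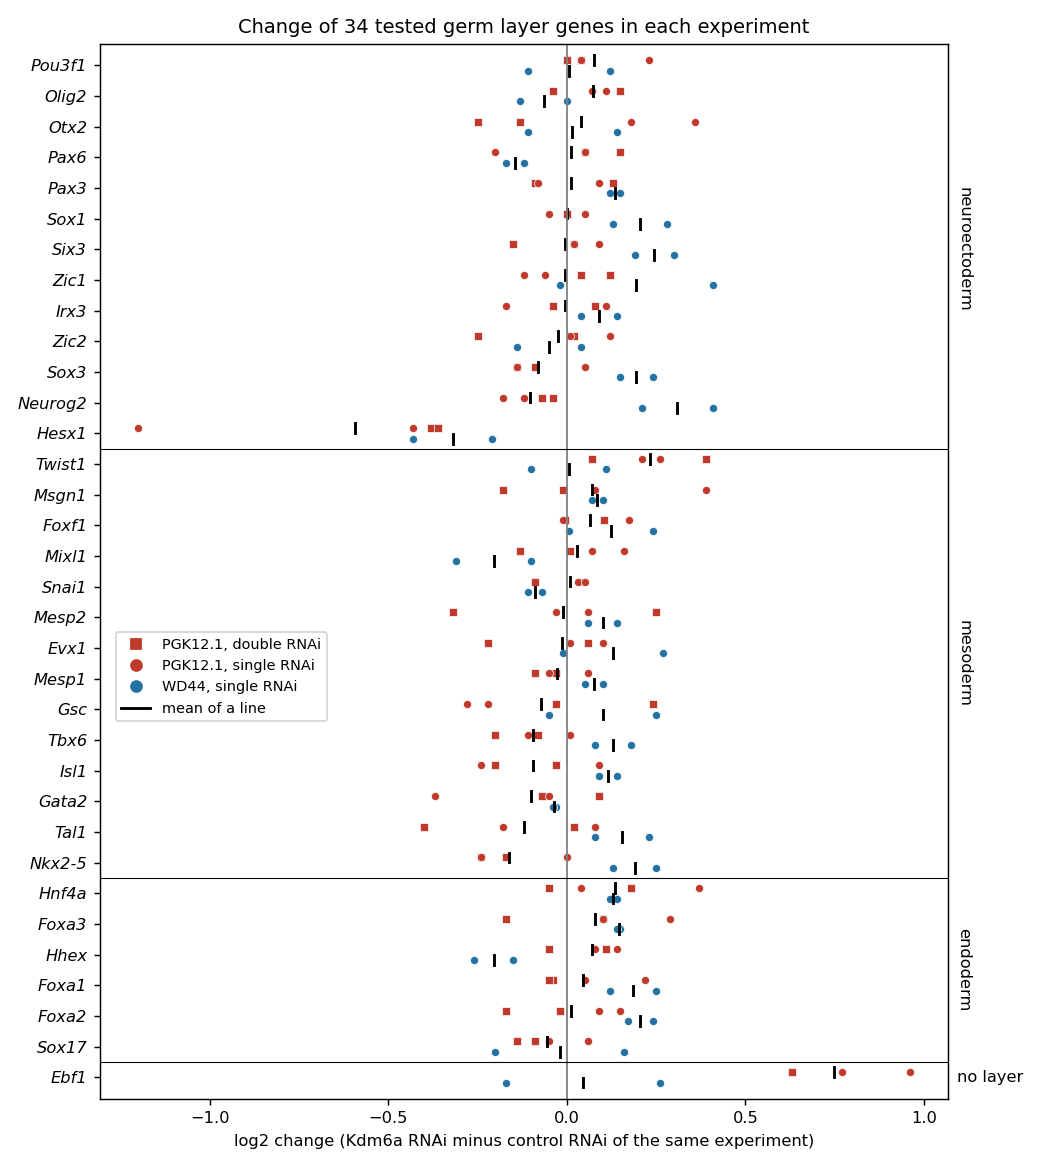
Log2 change of the 34 tested germ layer genes (*Kdm6a* RNAi minus control RNAi of the same experiment), by layer, with red squares for double RNAi in PGK12.1, red circles for single RNAi in PGK12.1, blue circles for WD44 and black bars for the mean of a line. *Ebf1* lies right of 0 and *Hesx1* left of 0 in all 4 PGK12.1 experiments, and *Neurog2* lies on opposite sides in the lines.

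In WD44 no germ layer gene passed the test, nor did any of the 15309 genes (0% in each direction). At an unadjusted p under 0.05 there were 9 of the 34 germ layer genes, against 2461 of the 15309 tested genes. The smallest adjusted p of a germ layer gene was 0.164 (limma). The median log2 change of the germ layer genes was 0.10, against -0.005 for all tested genes and 0.045 for the 7773 tested genes with a mean level under 0.5. Changes above 0 numbered 25 of 34 (73.5%), against 47.6% of all tested genes and 62.7% of those under 0.5. The 27 germ layer genes under 0.5 had a median of 0.115, with 77.8% above 0. Of all 34 germ layer genes, those at 0.5 or above included, 52.9% were higher in both WD44 experiments. The share was 31.3% of all tested genes and 44.7% of those under 0.5. The medians were 0.09 in neuroectoderm, 0.10 in mesoderm and 0.1375 in endoderm. With a minimum level of 0.25 the median of all germ layer genes was 0.03 and that of neuroectoderm 0.005. With quantile normalization it was 0.0496 over all germ layer genes, 0.0496 in neuroectoderm, 0.0477 in mesoderm and 0.0666 in endoderm. Other gene lists of low level had positive medians too, 0.165 for the 7 fibroblast markers among them, while the ES cell markers had a median of -0.075. The part of the shift of low genes in these medians was not tested.

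The smallest p in WD44 was that of *Neurog2*, a proneural basic helix-loop-helix gene. Its levels were 0.188 and 0.184 after *Kdm6a* RNAi and 0.14 and 0.158 after control RNAi in WD44, and 0.153, 0.129, 0.0978 and 0.157 after *Kdm6a* RNAi and 0.16, 0.134, 0.106 and 0.178 after control RNAi in PGK12.1. The WD44 groups did not overlap, and the PGK12.1 groups did. The log2 change was 0.41 and 0.21 in WD44 (adjusted p = 0.164, limma) and -0.04, -0.07, -0.12 and -0.18 in PGK12.1 (adjusted p = 0.247). The difference of -0.41 between the lines did not pass (adjusted p = 0.0867). With quantile normalization the WD44 change was 0.22 (adjusted p = 0.292, limma) and the difference -0.31 (adjusted p = 0.143, limma). Of the 7773 tested genes with a mean level under 0.5, 37.8% had a difference above 0, against 53.3% of all tested genes. The part of that shift in *Neurog2* was not tested.

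*Six3*, a homeobox gene of forebrain and eye, had log2 changes of 0.30 and 0.19 in WD44 with levels of 0.18 and 0.194 after *Kdm6a* RNAi and 0.144 and 0.169 after control RNAi (adjusted p = 0.192, limma). Its PGK12.1 changes of -0.15, 0.02, 0.02 and 0.09 had a mean of -0.005, with levels of 0.0925 to 0.213 after *Kdm6a* RNAi and 0.0911 to 0.2 after control RNAi. *Sox1* had 0.28 and 0.13 in WD44 (adjusted p = 0.198, limma) and 0.00, 0.00, -0.05 and 0.05 in PGK12.1. *Sox3* had 0.24 and 0.15 in WD44 (adjusted p = 0.224, limma) and -0.09, -0.14, -0.14 and 0.05 in PGK12.1. All 4 neuroectoderm genes with an unadjusted p under 0.05 in WD44 were positive, and none passed the adjustment.

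In mesoderm, *Mixl1*, a homeobox gene of the primitive streak, had levels of 0.271 and 0.275 after *Kdm6a* RNAi and 0.287 and 0.338 after control RNAi in WD44. Its log2 change was -0.10 and -0.31 in WD44 (adjusted p = 0.263, limma), against 0.01, -0.13, 0.16 and 0.07 in PGK12.1. *Nkx2-5* had levels of 0.472 and 0.485 after *Kdm6a* RNAi and 0.392 and 0.44 after control RNAi in WD44, with changes of 0.25 and 0.13 (adjusted p = 0.26). PGK12.1 minus WD44, its change differed by -0.35 (adjusted p = 0.0991). The 4 genes of nascent and presomitic mesoderm (*Mesp1*, *Mesp2*, *Tbx6*, *Msgn1*) had mean changes of 0.075 to 0.13 in WD44 and of -0.095 to 0.07 in PGK12.1, none called. The blood genes *Tal1* and *Gata2* had mean changes of 0.155 and -0.035 in WD44 and of -0.12 and -0.10 in PGK12.1.

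In endoderm, the forkhead genes *Foxa1* and *Foxa2*, pioneer factors of gut and liver, had positive changes in both WD44 experiments, 0.25 and 0.12 for *Foxa1* (adjusted p = 0.282, limma) and 0.24 and 0.17 for *Foxa2* (adjusted p = 0.259). *Foxa1* had levels of 0.245 and 0.225 after *Kdm6a* RNAi and 0.203 and 0.205 after control RNAi in WD44. *Foxa2* had 0.243 and 0.256 after *Kdm6a* RNAi and 0.203 and 0.226 after control RNAi there. In PGK12.1 the changes were -0.04, -0.05, 0.05 and 0.22 for *Foxa1* and -0.17, -0.02, 0.15 and 0.09 for *Foxa2*. *Hhex*, a homeobox gene of anterior endoderm and liver, had changes of -0.26 and -0.15 in WD44 (adjusted p = 0.212), with levels of 0.222 and 0.225 after *Kdm6a* RNAi and 0.262 and 0.247 after control RNAi. In PGK12.1 its changes were -0.05, 0.11, 0.08 and 0.14. In that line the levels of *Foxa1*, *Foxa2* and *Hhex* overlapped between *Kdm6a* RNAi and control RNAi. *Hnf4a* had changes of -0.05, 0.18, 0.37 and 0.04 in PGK12.1 and of 0.14 and 0.12 in WD44, none called.

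Tested for a difference between the lines, the changes gave calls for 0 germ layer genes and 0% of all tested genes in each direction (limma). At an unadjusted p under 0.05 there were 9 of the 34 germ layer genes, against 3216 of the 15309 tested genes. Of these 9, 4 were of neuroectoderm, 3 of mesoderm and 1 of endoderm, and 1 was *Ebf1*. *Ebf1* and *Neurog2* had the smallest adjusted p values of the list. In the single RNAi experiments alone, which match in rounds, their differences were 0.82 and -0.46 (adjusted p = 0.187 for each, limma). That of *Hesx1* was -0.495 there (adjusted p = 0.324, limma).

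Other genes of the layers, outside the list, were counted in the same fit of PGK12.1, in which 3.71% of all tested genes were called higher and 2.1% lower. Of 17 tested other neuroectoderm genes, 2 (11.8%) were called higher and 0 lower. They were *En2*, a homeobox gene of midbrain and hindbrain, at 0.35, 0.32, 0.51 and 0.53 (log2, mean 0.43, adjusted p = 0.00422, limma), and *Sox21*, a SOXB2 gene, at 0.14, 0.16, 0.22 and 0.29 (mean 0.20, adjusted p = 0.0381). Of 22 tested other mesoderm genes, 1 (4.55%) was called higher and 0 lower: *Tcf15*, a basic helix-loop-helix gene of paraxial mesoderm that is also active in epiblast, at 0.26, 0.26, 0.34 and 0.37 (mean 0.31, adjusted p = 0.00487). The median of this list was -0.07 in PGK12.1, with 17 of 22 genes below 0, and *Bmp4* had -0.24 without passing (adjusted p = 0.093). Of 9 tested other endoderm genes 0 were called, with a median of -0.055, and *Sox7*, a SOXF gene, had -0.24 (adjusted p = 0.0654). In PGK12.1, 0 of 6 primed epiblast markers were called, among which *Otx2* and *Pou3f1* are also on the germ layer list. Their median was 0.059, with 4 genes above 0 and 2 below, and *Dnmt3b*, a DNA methyltransferase gene, had -0.26 (adjusted p = 0.0639, limma). Of 9 tested primitive endoderm markers, 0 were called higher and 1 (11.1%) was called lower, *Lamb1*, a laminin gene of basement membrane (-0.26, adjusted p = 0.0156, limma). The median of these 9 was 0.02, with 5 genes above 0 and 4 below. *Gata4*, *Gata6* and *Sox7* were counted both here and among the other endoderm genes. *En2*, *Sox21* and *Tcf15* had changes of 0.08 and -0.17, 0.04 and -0.13, and 0.22 and 0.19 in WD44, where none was called.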

How the data were processed

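Per the methods and the submitters' processing notes, RMA in Affymetrix Expression Console gave the log2 values that the authors deposited, those of 35556 probe sets on 12 arrays (4 experiments in PGK12.1, 2 in WD44). The sources used here do not state versions or which arrays entered RMA together. Genes were named by the platform annotation, in which 21789 probe sets had 1 gene symbol, 1621 several and 12146 none listed. Probe sets of a gene were averaged. Probe sets with several symbols were not used. The members and lists were chosen with earlier results of these data known.

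Genes whose linear value averaged 0.1 or more of the array mean (15309 of 19938) were tested with limma 3.58.1 in R 4.3.3: the experiment as a block, 1 *Kdm6a* RNAi effect per line, 1 spread shared by both lines, so that intervals in WD44 rest mainly on PGK12.1, and Benjamini-Hochberg adjustment over all tested genes at 0.05. The fit was tested on simulated data. The methods name paired tests, and the labels number the arrays of an experiment alike. As a pairing check, the 2 arrays of an experiment deviated together from their group means, with correlations of 0.828, 0.846, 0.915 and 0.972 in PGK12.1, which also hold the scale of the arrays, and of 0.265 in WD44, for both experiments by construction. The number of arrays limits the precision. P-values measure the spread between these experiments.

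Genes given in full were those called, those with a mean level of at least 0.5, and per layer the 3 with the smallest unadjusted p in either line. Genes nearest to 0.1 were given by level, and up to 2 genes per other list were named. *Hnf4a* levels, *Tal1*, *Gata2*, the presomitic genes and *Acta2* were added after their values were seen. Alternatives were the minimum level, single probe sets, the block, trend and robust moderation, array scaling, subsets of experiments and the paired test of the methods. Promoter windows came from RefSeq (GRCm38.p6). Python 3.11.15 with matplotlib 3.10.9 drew the figures.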

Additional observations from a re-analysis of the deposited data

Results flagged for a closer look

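Among the 4 PGK12.1 experiments, the change of *Hesx1* in experiment 4 (-1.20, log2) lay far from the others, which were -0.36 to -0.43. *Snai1* had its lowest change in experiment 1 (-0.09) apart from 0.03 to 0.05 in the others. Of 34 genes examined 2 had such a distant experiment, and chance flags about 1 in 20 groups. The change of *Neurog2* differed between the lines by -0.41 (log2, PGK12.1 minus WD44), with 4 of 4 PGK12.1 experiments lower and 2 of 2 WD44 experiments higher after *Kdm6a* RNAi, and the test of the difference did not pass (adjusted p = 0.0867, limma). *Neurog2* is a gene of low level. The median difference was -0.0575 for tested genes with a mean level under 0.5, against 0.015 for all tested genes.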

How the results depend on the processing

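The counts of germ layer genes called in PGK12.1 (1 higher, *Ebf1*, and 1 lower, *Hesx1*) depended on several settings. With a minimum level of 0.25, 2 were higher (*Twist1* joined) and 0 lower (*Hesx1* was not tested), with the trend and robust options 2 were higher, and with no minimum level 0 were lower. Without the replicate block, with or without array medians subtracted, 0 were called in each direction. In the double RNAi experiments only and by the methods' paired test 0 were called in each direction, and in the single RNAi experiments only 0 were lower. Without each replicate in turn, 1 was higher and 1 lower throughout. The count higher in PGK12.1 than in WD44 was 1 (*Ebf1*) in place of 0 with a minimum level of 0.25 and with the trend and robust options (adjusted p = 0.0351 and 0.00879, limma).

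Over all genes, the counts in PGK12.1 (568 higher, 322 lower) were 270 and 182 with no minimum level, 926 and 439 with a minimum of 0.25, 1101 and 546 with trend and robust options, 332 and 205 in the PGK12.1 arrays only, 43 and 58 in the single RNAi experiments only, and 0 and 0 in the double RNAi experiments only, without the replicate block and by the methods' paired test. Without each PGK12.1 replicate in turn they were 198 to 396 and 152 to 211. For the difference (0 and 0), trend and robust options gave 394 and 160, a minimum of 0.25 gave 178 and 89, and subtracted medians or quantile normalization 1 and 1. For WD44 (0 and 0), trend and robust options gave 2 and 10, and a minimum of 0.25, quantile normalization or leaving out PGK12.1 experiment 4 gave 0 and 1. The changes of single genes (those called and those with the smallest p) were recomputed under the alternatives, and 0 turned their direction. A call was lost in 10 of these recomputations, 4 of *Ebf1* and 6 of *Hesx1* in PGK12.1. A call was gained in 4, 2 of *Twist1* in PGK12.1 and 2 of the *Ebf1* difference between the lines. The causes were not tested. The median change of the germ layer genes in PGK12.1 (-0.0025) was 0.01 with a minimum of 0.25, 0.0025 with array medians subtracted and 0.0024 with quantile normalization, and that of neuroectoderm (-0.005) was 0.0125, 0 and 0.0031. In WD44 the median of the germ layer genes (0.10) was 0.03 with a minimum of 0.25 and 0.0496 with quantile normalization, and that of endoderm (0.1375) was 0.11 with no minimum and 0.0666 with quantile normalization. The number of germ layer genes at or above 0.1 was 33 to 38 under the alternatives. Levels near 0.1 and 2 experiments in WD44 limit what could be detected.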
